A study of Mus musculus with 6 samples.

Results

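The fibrillar collagens are the collagens that assemble into the banded fibrils of connective tissue. The 10 genes listed for the family, *Col1a1*, *Col1a2*, *Col2a1*, *Col3a1*, *Col5a1*, *Col5a2*, *Col5a3*, *Col11a1*, *Col24a1* and *Col27a1*, were taken by symbol from the 47069 genes counted in inguinal subcutaneous white adipose tissue (SC-WAT). The tissue came from 3 *Egr1*+/+ and 3 *Egr1*-/- mice, with 1 library per mouse, all of them untreated 2-week-old females of the C57BL/6 strain (C57BL/6 J in the methods) born to *Egr1*+/- parents. *Egr1* encodes a zinc finger transcription factor that is induced rapidly by growth signals. The mutant allele carries the *LacZ* coding sequence in the leader of the transcript and a frameshift ahead of the DNA-binding domain. The allele is present in every cell from conception, and RNA was taken from whole fat pads, so a value for a collagen gene cannot be assigned to adipocytes or to any other cell type. The comparison asked which collagen transcripts differ in SC-WAT without functional EGR1.

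A fibrillar collagen is made as a procollagen, in which chains wind around each other into a long helix. Prolyl and lysyl residues of the chains are hydroxylated in the endoplasmic reticulum, the helix is secreted, and removal of the end pieces lets the molecules assemble side by side into fibrils that lysyl oxidases then crosslink. Type I collagen, built from the products of *Col1a1* and *Col1a2*, forms the bulk of most fibrils, type III collagen (*Col3a1*) is mixed into the fibrils of soft tissues, and type V collagen (*Col5a1*, *Col5a2*, *Col5a3*) lies inside fibrils and governs how they start and how thick they grow. Types II and XI (*Col2a1*, *Col11a1*) are the fibrillar collagens of cartilage, and types XXIV and XXVII (*Col24a1*, *Col27a1*) are later-described relatives with a shorter helix. In adipose tissue, fibroblasts and adipocyte progenitors are the main producers, and the fibrils form the mesh around fat cells.

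The libraries held 29661984 to 42357981 gene counts each, and mitochondrial genes took 50.0% to 57.4% of them with *Egr1* and 54.9% to 66.3% without it. The highest mitochondrial share was that of *Egr1*-/- mouse 1. Levels are therefore given as CPM, counts relative to a library size that the TMM method adjusts so that libraries are level on the bulk of genes rather than on the total. *Egr1* itself had 10.3, 8.02 and 16.5 CPM in *Egr1*+/+ mice and 3.09, 2.71 and 1.84 CPM in *Egr1*-/- mice, so each library matched its genotype label in direction. All 8 adipocyte markers examined were present, with a summed level of 6662 to 8432 CPM over the 6 mice, and *Fabp4*, a fatty acid carrier of fat cells, alone stood at 2980 to 4200 CPM. Genotypes were compared by the quasi-likelihood test of edgeR with Benjamini-Hochberg adjustment over 17667 genes. Every edgeR p given here comes from that fit unless another setting is named.

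The family as a whole took a smaller share of the RNA in *Egr1*-/- SC-WAT. Fibrillar collagen counts were 1.16%, 1.41% and 1.26% of all counts outside mitochondrial genes in *Egr1*+/+ mice, compared with 1.002%, 0.778% and 0.812% in *Egr1*-/- mice, or 1.28% ± 0.124 against 0.864% ± 0.121 (SD, n = 3). Every *Egr1*-/- mouse lay below every *Egr1*+/+ mouse, with *Egr1*-/- mouse 1 nearest to the controls. In whole tissue, fewer cells that make collagen and less collagen RNA per cell cannot be told apart. Of the 10 genes, 9 passed the filter on low counts, and *Col2a1* did not. *Col24a1* passed through the *Egr1*+/+ mice, since all 3 of them but only 2 of the *Egr1*-/- mice reached the count minimum, which is scaled to library size. *Egr1*-/- mouse 1, whose library was the largest, fell short of it with 11 reads.

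By the quasi-likelihood test of edgeR, 0 of the 9 tested members passed an adjusted p of 0.05, a threshold passed by 0.0170% of all tested genes. At an unadjusted p under 0.05, 6 of the 9 were lower in *Egr1*-/- mice, a call made for 5.60% of all genes, and 0 were higher, against 5.06% of all genes. The same 6, *Col1a1*, *Col1a2*, *Col3a1*, *Col5a1*, *Col5a2* and *Col24a1*, had *Egr1*-/- values that all lay below the *Egr1*+/+ values, as did 8.10% of all genes, and 0 had the opposite separation, found in 8.15% of all genes. DESeq2, a second count model, gave an adjusted p for 8 members and called 4 of them lower, *Col1a1*, *Col1a2*, *Col3a1* and *Col5a2*, where it called 1.71% of all genes lower. It called 0 members higher, against 0.928% of all genes. The fitted log2 fold change (*Egr1*-/- over *Egr1*+/+) was below 0 in 9 of 9 tested members and in 49.9% of all genes, although that of *Col27a1* was -0.00018. Among the 7 members with a mean of at least 10 CPM over all mice, which leaves out *Col24a1* and *Col11a1*, 5 were lower at an unadjusted p under 0.05 and the same number had separated groups. The median log2 fold change was -0.58 over the tested members, also over these 7, and 0.0011 over all tested genes. The plot of fold changes with their intervals shows the members beside one another.

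**Figure D1:**
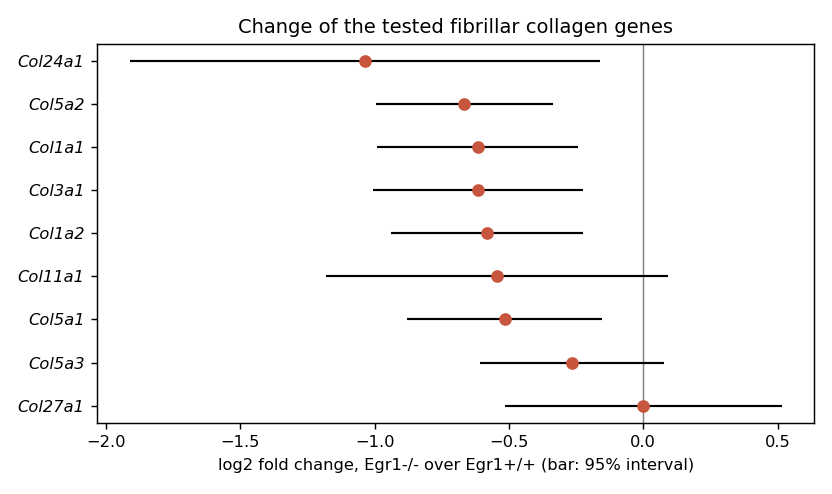
Log2 fold change (*Egr1*-/- over *Egr1*+/+, horizontal axis) of the 9 tested fibrillar collagens in edgeR's quasi-likelihood fit, with bars for the 95% interval. The intervals of *Col1a1*, *Col1a2*, *Col3a1*, *Col5a1*, *Col5a2* and *Col24a1* lie below 0, those of *Col5a3* and *Col11a1* cross it, and that of *Col27a1* is centred on it (-0.52 to 0.52).

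The genes of type I collagen are on different chromosomes, *Col1a1* (ENSMUSG00000001506.10) at chr11:94936224-94953042 on the plus strand of GRCm38 and *Col1a2* (ENSMUSG00000029661.16) at chr6:4504814-4541544 on the plus strand. Their principal transcripts have 51 and 52 exons. *Col1a1*, the alpha 1 chain, stood at 780, 896 and 809 CPM in *Egr1*+/+ mice and 662, 457 and 501 CPM in *Egr1*-/- mice. *Col1a2*, the alpha 2 chain, stood at 975, 1233 and 1032 CPM in *Egr1*+/+ mice and 826, 638 and 700 CPM in *Egr1*-/- mice. Neither chain's groups overlapped, and in both *Egr1*-/- mouse 1 was the highest of the mutants. The log2 fold change of *Col1a1* was -0.62 ± 0.17 (SE), with a 95% interval of -0.99 to -0.24 and a Benjamini-Hochberg adjusted p of 0.242 by edgeR and 0.00855 by DESeq2. That of *Col1a2* was -0.58 ± 0.16 (SE), with an interval of -0.94 to -0.23 and an adjusted p of 0.245 by edgeR and 0.00858 by DESeq2. On the CPM scale the mean was 34.8% lower for *Col1a1* and 33.2% lower for *Col1a2*.

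*Col3a1* (ENSMUSG00000026043.18, chr1:45311538-45349706, plus strand, 51 exons), the sole chain of type III collagen, was the most counted member, with 51752 to 127434 reads per mouse. It reached 2697, 3369 and 2956 CPM in *Egr1*+/+ mice and 2296, 1671 and 1925 CPM in *Egr1*-/- mice. The groups did not overlap, and the order of the mice was the one seen for *Col1a2*, with *Egr1*+/+ mouse 2 highest and *Egr1*-/- mouse 2 lowest. Its log2 fold change was -0.61 ± 0.17 (SE), with an interval of -1.01 to -0.22 and an adjusted p of 0.260 by edgeR and 0.00646 by DESeq2.

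Among the type V chains, the genotypes separated in *Col5a1* and *Col5a2* and overlapped in *Col5a3*. *Col5a2* (ENSMUSG00000026042.16, chr1:45374321-45503282, minus strand) had the most even controls of the tested members, at 282, 286 and 293 CPM, against 216, 154 and 172 CPM in *Egr1*-/- mice. Its log2 fold change of -0.67 ± 0.15 (SE), with an interval of -0.996 to -0.336, came with the lowest p of the family, an adjusted p of 0.190 by edgeR and 0.0016 by DESeq2. *Col5a1* (ENSMUSG00000026837.15, chr2:27886425-28039514, plus strand), the chain found in most type V molecules, stood at 175, 201 and 183 CPM against 161, 108 and 122 CPM. These groups did not overlap either, though *Egr1*-/- mouse 1 came within reach of the lowest control. The log2 fold change of *Col5a1* was -0.52 ± 0.16 (SE, interval -0.88 to -0.15), with an adjusted p of 0.300 by edgeR and 0.0563 by DESeq2. *Col5a3* (ENSMUSG00000004098.7, chr9:20770050-20815067, minus strand), the chain of more restricted distribution, stood at 152, 123 and 107 CPM against 115, 106 and 96.4 CPM. The groups of *Col5a3* overlapped, its log2 fold change was -0.27 ± 0.15 (SE), and the interval of -0.61 to 0.08 holds both no difference and a difference close to that of *Col1a2* (edgeR adjusted p of 0.591). Whether *Col5a3* differed less than *Col5a1* and *Col5a2* was not tested.

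*Col3a1* and *Col5a2* are direct neighbours on chromosome 1. They are transcribed towards each other, with 24615 bases between their 3′ ends. Exons of *Col5a1* overlap on the opposite strand with *2810430I11Rik* (99 bases) and *Gm13372* (113 bases), and one end of *Col3a1* overlaps with the microRNA gene *Gm47302* (141 bases). The library kit kept the strand, but the strand setting of the counting is not given in the sources used here. The genes overlapping *Col5a1* held 12 to 26 counts per mouse for *2810430I11Rik* and 0 to 2 for *Gm13372*, against at least 3344 for *Col5a1*. *Gm47302* held 0 in every mouse, against at least 51752 for *Col3a1*. With the counting settings unknown, these counts do not show how many collagen reads the overlaps may have cost.

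The remaining members were scarce in SC-WAT, apart from *Col27a1*. *Col2a1* (ENSMUSG00000022483.16, chr15:97975602-98004695, minus strand), the main collagen of cartilage, had 1, 1 and 1 reads in *Egr1*+/+ mice, compared with 4, 1 and 4 in *Egr1*-/- mice, too few for a comparison. *Col11a1* (ENSMUSG00000027966.19, chr3:114030540-114220718, plus strand) had 96, 104 and 92 reads in *Egr1*+/+ mice, compared with 83, 52 and 48 in *Egr1*-/- mice. Scaled, this was 2.79, 3.46 and 2.13 CPM against 2.49, 1.68 and 1.55 CPM, with overlapping groups. The log2 fold change of *Col11a1* was -0.54 ± 0.28 (SE, interval -1.18 to 0.09), with an edgeR adjusted p of 0.550. *Col11a2*, the other type XI gene and not among the 10 members, had 76 to 123 counts in *Egr1*+/+ mice and 91 to 135 in *Egr1*-/- mice, with a log2 fold change of 0.28 ± 0.28 (SE) and an edgeR adjusted p of 0.782. The summed level of 7 cartilage and tendon markers was 2.55 to 3.03 CPM in *Egr1*+/+ mice and 2.29 to 3.18 CPM in *Egr1*-/- mice, and only 4 of them passed the filter on low counts.

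*Col24a1* (ENSMUSG00000028197.4, chr3:145292472-145552011, plus strand) had 36, 32 and 33 reads in *Egr1*+/+ mice, compared with 11, 19 and 14 in *Egr1*-/- mice. Its log2 fold change of -1.04 ± 0.39 (SE) was the most negative of the family and also the least precise, with an interval of -1.91 to -0.16 and an edgeR adjusted p of 0.378. At this depth a difference in *Col24a1* rests on 11 to 36 reads per mouse. *Col27a1* (ENSMUSG00000045672.15, chr4:63214004-63334991, plus strand), at 20.9, 11.2 and 22.6 CPM in *Egr1*+/+ mice and 18.2, 19.0 and 17.6 CPM in *Egr1*-/- mice, spread widely among the controls. Its *Egr1*-/- values lay inside the control range, its log2 fold change was -0.00018 ± 0.23 (SE), and its interval of -0.52 to 0.52 is wide enough to hold a difference of about the size measured for *Col5a1*. The low control for *Col27a1* was *Egr1*+/+ mouse 2, which also had the highest summed level of 8 skeletal muscle markers, 3122 CPM against 1011 and 194 CPM in the other controls and 91.2, 330 and 2513 CPM in *Egr1*-/- mice. *Egr1*-/- mouse 3, with the second highest muscle sum, had 17.6 CPM of *Col27a1*. The part of muscle tissue in the spread of *Col27a1* was not tested.

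Per kilobase of the principal transcript, where levels of different genes can be set side by side, the members spanned several orders of magnitude. *Col3a1* led in *Egr1*+/+ mice with 541 ± 60.9 CPM per kilobase (SD, n = 3), followed by *Col1a2* with 202 ± 25.3 and *Col1a1* with 140 ± 10.1. *Col5a2* came next with 43.3 ± 0.819 CPM per kilobase, ahead of *Col5a1* with 22.2 ± 1.58 and *Col5a3* with 20.8 ± 3.76. The ranges of *Col5a1* and *Col5a3* overlapped in *Egr1*+/+ mice (20.9 to 23.9 against 17.5 to 24.9), so their order is open. *Col27a1* stood at 2.39 ± 0.812 CPM per kilobase, and *Col11a1*, *Col24a1* and *Col2a1* lay below 1. In *Egr1*-/- mice the levels were 353 ± 56.5 CPM per kilobase for *Col3a1*, 135 ± 17.9 for *Col1a2*, 91.1 ± 18.2 for *Col1a1* and 27.3 ± 4.85 for *Col5a2*, in the same order. Below them came *Col5a3* with 17.3 ± 1.54 and *Col5a1* with 15.5 ± 3.28. The order of *Col1a1* and *Col1a2* depends on the length used. Over all annotated exons, which for *Col1a2* include retained introns and reach 12426 bases instead of 5348, the *Egr1*+/+ level of *Col1a1* was 126 CPM per kilobase and that of *Col1a2* 86.9.

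**Figure D2:**
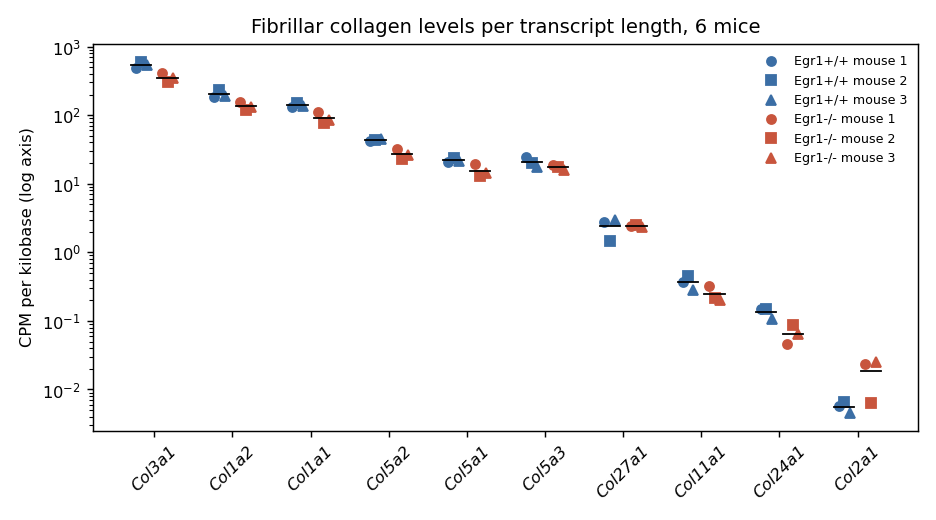
Level of each fibrillar collagen in CPM per kilobase of principal transcript (log axis) in each of the 6 mice, with *Egr1*+/+ and *Egr1*-/- mice in different colours. *Col3a1* is the most abundant per length (541 ± 60.9 in *Egr1*+/+ and 353 ± 56.5 in *Egr1*-/- mice) and *Col2a1* the least.

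The shares of the single chains in the family's total lay close together in both genotypes. *Col3a1* made up 55.6% ± 0.995 of the family's summed level per kilobase in *Egr1*+/+ mice and 55.0% ± 0.751 in *Egr1*-/- mice (SD, n = 3). *Col1a2* contributed 20.8% and 21.1%, and *Col1a1* 14.4% and 14.1%. The share of *Col5a2* was 4.49% and 4.25%, that of *Col5a1* 2.29% and 2.40%, and that of *Col5a3* 2.17% and 2.73%, the largest relative difference among these 6 chains.

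Ratios within each mouse do not depend on the scaling of the libraries. The ratio of *Col1a2* to *Col1a1*, per kilobase of principal transcript, was 1.39, 1.53 and 1.42 in *Egr1*+/+ mice, compared with 1.38, 1.55 and 1.55 in *Egr1*-/- mice. Its mean in *Egr1*-/- mice was 1.04 times the control mean (exact two-sided permutation p = 0.6). For *Col3a1* to *Col1a1* the ratio was 3.69, 4.01 and 3.89 against 3.70, 3.89 and 4.09, and the means differed by a factor of 1.01 (exact two-sided permutation p = 0.8). The groups overlapped in both ratios. The ratio of *Col5a2* to *Col5a1* was 2.04, 1.80 and 2.03 in *Egr1*+/+ mice, compared with 1.70, 1.81 and 1.79 in *Egr1*-/- mice, where the mean was 0.903 times the control mean (exact two-sided permutation p = 0.2). With 3 mice against 3 the smallest p this test allows is 0.1, so none of the 3 ratios could pass 0.05, and a p above it does not show that the ratios were equal.

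The chains of types I, III and V other than *Col5a3* also varied together among mice of the same genotype. After removal of the genotype means, the 10 pairs among *Col1a1*, *Col1a2*, *Col3a1*, *Col5a1* and *Col5a2* had Pearson's r of 0.725 to 0.998 over the 6 mice. *Col5a2* hardly varied among the *Egr1*+/+ mice (log2 deviations of -0.023, -0.0072 and 0.030), so its r reflects mainly the *Egr1*-/- mice. *Col11a1* followed the 5 chains with r of 0.578 to 0.784. The values for *Col5a3* were -0.085 to 0.183, those for *Col27a1* -0.674 to -0.0065 and those for *Col24a1*, with 11 to 36 reads per mouse, -0.877 to -0.486. The 6 points share their libraries and scaling, and removal of the means ties the points of a genotype together, so these values describe the present mice only. On the log2 scale *Egr1*-/- mouse 1 lay 0.20 to 0.33 above the mean of its genotype in each of the 5 chains, and *Egr1*-/- mouse 2 lay below it in each. The plot of each mouse relative to the control mean shows this.

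**Figure D3:**
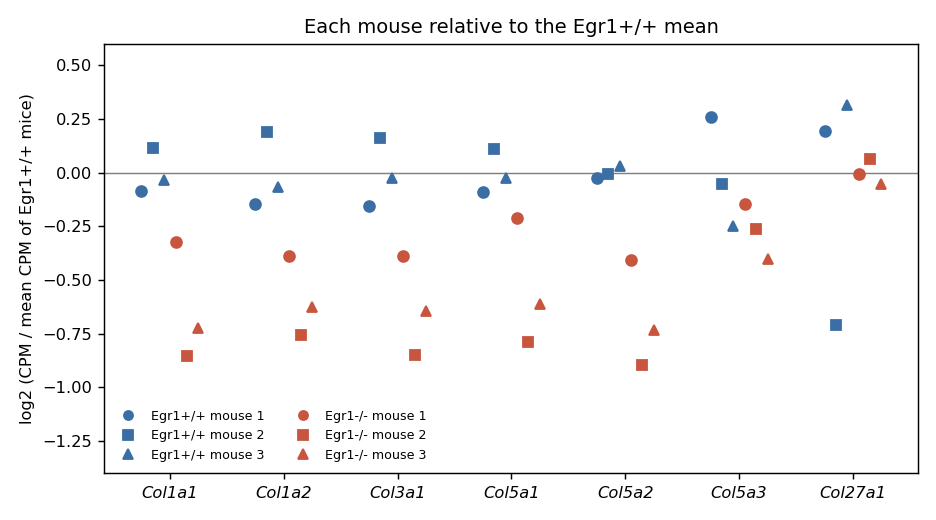
Log2 ratio of each mouse's CPM to the mean CPM of the *Egr1*+/+ mice (vertical axis) for the 7 members above 10 CPM, 1 symbol per mouse. In the type I, III and V chains other than *Col5a3*, all *Egr1*+/+ mice lie above the *Egr1*-/- mice and *Egr1*-/- mouse 1 is the highest mutant.

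The promoter windows of *Col1a2*, *Col3a1*, *Col5a1* and *Col24a1* are shown as those of the matched members whose groups separated, and that of *Col27a1* as the member with a fold change near 0. Each window runs from 250 bases before to 50 bases after the RefSeq start of the gene (assembly GRCm38.p6), and windows were matched for 7 of the 10 members. *Col1a1*, *Col2a1* and *Col5a2* were not matched. Capitals mark GC boxes (GGGCGG, bound by Sp family factors), CCAAT boxes (CCAAT) and TATA boxes (TATAAA), searched on both strands, so that CCGCCC and ATTGG are the same boxes on the opposite strand. The windows lie at chr6:4505368-4505667 (plus strand) for *Col1a2*, chr1:45311288-45311587 (plus strand) for *Col3a1*, chr2:27886175-27886474 (plus strand) for *Col5a1*, chr3:145292222-145292521 (plus strand) for *Col24a1* and chr4:63215162-63215461 (plus strand) for *Col27a1*.
Col1a2: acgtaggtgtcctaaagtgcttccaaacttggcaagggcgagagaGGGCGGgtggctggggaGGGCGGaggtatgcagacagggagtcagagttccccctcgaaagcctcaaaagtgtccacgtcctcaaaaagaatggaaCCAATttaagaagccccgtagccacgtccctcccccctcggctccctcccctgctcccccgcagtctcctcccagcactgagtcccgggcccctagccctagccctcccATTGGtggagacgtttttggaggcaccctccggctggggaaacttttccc
Col3a1: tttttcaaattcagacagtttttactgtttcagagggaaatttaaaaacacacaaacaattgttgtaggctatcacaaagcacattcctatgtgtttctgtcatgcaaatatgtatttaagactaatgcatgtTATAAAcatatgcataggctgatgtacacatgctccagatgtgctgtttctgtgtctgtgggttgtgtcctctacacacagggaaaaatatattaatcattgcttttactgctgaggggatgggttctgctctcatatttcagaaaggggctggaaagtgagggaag
Col5a1: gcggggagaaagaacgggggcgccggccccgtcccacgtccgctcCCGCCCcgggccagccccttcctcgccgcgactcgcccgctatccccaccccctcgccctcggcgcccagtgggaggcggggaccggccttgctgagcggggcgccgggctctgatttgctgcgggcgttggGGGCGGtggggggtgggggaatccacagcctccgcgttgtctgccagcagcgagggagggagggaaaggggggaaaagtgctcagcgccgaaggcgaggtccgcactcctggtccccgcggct
Col24a1: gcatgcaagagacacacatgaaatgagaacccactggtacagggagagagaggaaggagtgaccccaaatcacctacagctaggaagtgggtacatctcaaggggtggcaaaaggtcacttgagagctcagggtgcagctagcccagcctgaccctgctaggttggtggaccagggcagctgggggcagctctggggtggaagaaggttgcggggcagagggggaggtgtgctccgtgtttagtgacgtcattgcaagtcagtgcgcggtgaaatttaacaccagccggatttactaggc
Col27a1: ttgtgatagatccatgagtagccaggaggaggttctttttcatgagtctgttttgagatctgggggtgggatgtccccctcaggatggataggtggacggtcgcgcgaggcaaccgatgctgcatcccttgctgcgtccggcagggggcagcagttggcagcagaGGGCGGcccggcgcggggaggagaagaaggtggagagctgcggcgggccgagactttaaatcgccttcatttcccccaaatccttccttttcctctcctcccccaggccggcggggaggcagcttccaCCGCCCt

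The EGR1 consensus GCGNGGGCG, in which N is any base, was found on either strand in 0 of the 7 windows and in 5.55% of all 32851 promoter windows of the same length. Its letters can overlap with those of a GC box. GC boxes were found in *Col1a2*, *Col5a1*, *Col5a3*, *Col11a1* and *Col27a1*, 5 of the 7 windows, and in 35.7% of all windows. CCAAT boxes were in *Col1a2*, *Col5a3* and *Col11a1* and in 37.4% of all windows, and a TATA box was in *Col3a1* alone of the 7 and in 13.6% of all windows. The *Col3a1* window was the poorest in G and C, at 37.7%, and that of *Col5a1* the richest, at 75%. Both genes had separated groups, as had *Col24a1*, whose window held none of the boxes searched. The *Col27a1* window, with GC boxes like those of *Col1a2* and *Col5a1*, belongs to the gene with a fold change near 0. A match is a run of letters and not evidence of binding, and the absence of one holds for these windows only.

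Genes that make, export and crosslink procollagen were examined as lists, and none of their members was called by edgeR's quasi-likelihood test. The counts of these and the later lists stand beside the shares over all tested genes. At an unadjusted p under 0.05, 5.60% of all genes were lower and 5.06% higher. All *Egr1*-/- values lay below the *Egr1*+/+ values in 8.10% and above them in 8.15%, and DESeq2 called 1.71% lower. Of 18 tested genes for folding and modification, 17 had a lower fitted level in *Egr1*-/- mice, 9 were lower at an unadjusted p under 0.05 and 0 higher, and 11 had separated groups. Their median log2 fold change was -0.35. *P4hb*, the beta subunit of prolyl 4-hydroxylase, stood at 189, 191 and 207 CPM in *Egr1*+/+ mice and 152, 130 and 141 CPM in *Egr1*-/- mice, with a log2 fold change of -0.47 ± 0.12 (SE) and an edgeR adjusted p of 0.227, and it was the only gene of the list that DESeq2 called (adjusted p of 0.011). The catalytic subunits *P4ha1* and *P4ha2* had log2 fold changes of -0.41 and -0.56, and *Plod2*, a lysyl hydroxylase, one of -0.60. Of 11 genes for export and removal of the end pieces, all 11 had a lower fitted level, 5 at an unadjusted p under 0.05, with a median of -0.30. *Pcolce2*, an enhancer of the protease that removes the carboxyl end, averaged 25.9 ± 5.96 CPM in *Egr1*+/+ mice and 13.1 ± 4.78 CPM in *Egr1*-/- mice (SD, n = 3), and *Adamts2*, the protease of the amino end, had a log2 fold change of -0.56 ± 0.15 (SE). DESeq2 called both, with adjusted p of 0.00752 and 0.0369. Of the 5 lysyl oxidases 2 were lower at an unadjusted p under 0.05, *Loxl2* with a log2 fold change of -0.49 ± 0.15 (SE) and *Loxl3* with -0.52 ± 0.21, while *Lox*, *Loxl1* and *Loxl4* had overlapping groups and values of -0.28, -0.27 and -0.20.

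Among 18 tested proteins that coat or join fibrils, 14 had a lower fitted level, 11 were lower at an unadjusted p under 0.05 and 0 higher, and DESeq2 called 7 lower. *Lum* and *Dcn* encode small proteoglycans that bind fibril surfaces, *Col14a1* a collagen attached to fibrils, and *Fn1* fibronectin. *Lum* stood at 63.5, 60.9 and 62.2 CPM in *Egr1*+/+ mice and 39.1, 31.3 and 35.4 CPM in *Egr1*-/- mice, with a log2 fold change of -0.82 ± 0.12 (SE) and an edgeR adjusted p of 0.0928. *Dcn*, *Col14a1* and *Fn1* had log2 fold changes of -0.88, -0.76 and -0.75. All 4 values were larger in size than those of the type I, III and V chains, a contrast that was not tested. These 4 are the genes of the list with the lowest unadjusted edgeR p. The median of all 18 was -0.49, beside -0.58 for the tested fibrillar members.

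The list for collagen degradation held both proteases and their inhibitors. Of its 11 tested genes, 8 had a lower and 3 a higher fitted level, 7 were lower at an unadjusted p under 0.05 and 0 higher, and DESeq2 called 5. Those 7 were 4 proteases and 3 inhibitors of metalloproteinases. *Fap* and *Ctsk*, proteases that cut collagen or its fragments, had log2 fold changes of -0.68 ± 0.13 (SE) and -0.75 ± 0.16, and the matrix metalloproteinases *Mmp14* and *Mmp2* had -0.54 and -0.52. The inhibitors *Timp1*, *Timp2* and *Timp3*, named after their values were seen, had log2 fold changes of -1.50 ± 0.45 (SE), -0.62 ± 0.18 and -0.34 ± 0.13. *Timp4*, the remaining inhibitor of the list, went the other way, at 0.48 ± 0.33 with overlapping groups. *Timp1* had 19, 27 and 46 reads in *Egr1*+/+ mice, compared with 7, 12 and 9 in *Egr1*-/- mice. It passed the filter on low counts only through the *Egr1*+/+ mice, and DESeq2 gave it no adjusted p. Of 10 receptors, 6 had a lower and 4 a higher fitted level, with a median of -0.25. The groups were separated with lower *Egr1*-/- values in 5 receptors and with higher values in 1. At an unadjusted p under 0.05, 4 were lower and 0 higher. Among the lower ones were *Mrc2*, an uptake receptor for collagen (-0.55), and *Ddr2*, a receptor kinase that binds fibrils (-0.61). Of 29 other collagens, 19 had a lower and 10 a higher fitted level, 8 were lower at an unadjusted p under 0.05, and their median was -0.33 against -0.58 for the tested fibrillar members. The difference between the medians was not tested. *Col14a1* and some of the other collagens were also counted among the proteins that coat or join fibrils, so these lists overlap. The type VI chains *Col6a1* and *Col6a2* had log2 fold changes of -0.42 and -0.46.

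Of 21 tested regulators of collagen genes, the mutated *Egr1* included, 15 had a lower and 6 a higher fitted level, 2 were lower at an unadjusted p under 0.05, against 5.60% of all genes, and the median was -0.03. Besides *Egr1*, with a log2 fold change of -2.19 ± 0.30 (SE) and an edgeR adjusted p of 0.0878, these were only *Tgfb2*, a ligand that induces collagen, at -0.72 ± 0.24 with an adjusted p of 0.325. *Tgfb3*, another ligand, had -0.38 ± 0.18, and *Smad7*, an inhibitor of the same pathway, 0.34 ± 0.17, with unadjusted edgeR p of 0.056 and 0.078. The ligand *Tgfb1* went the other way from *Tgfb2* and *Tgfb3*, at 0.34 ± 0.23 with overlapping groups.

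**Figure D4:**
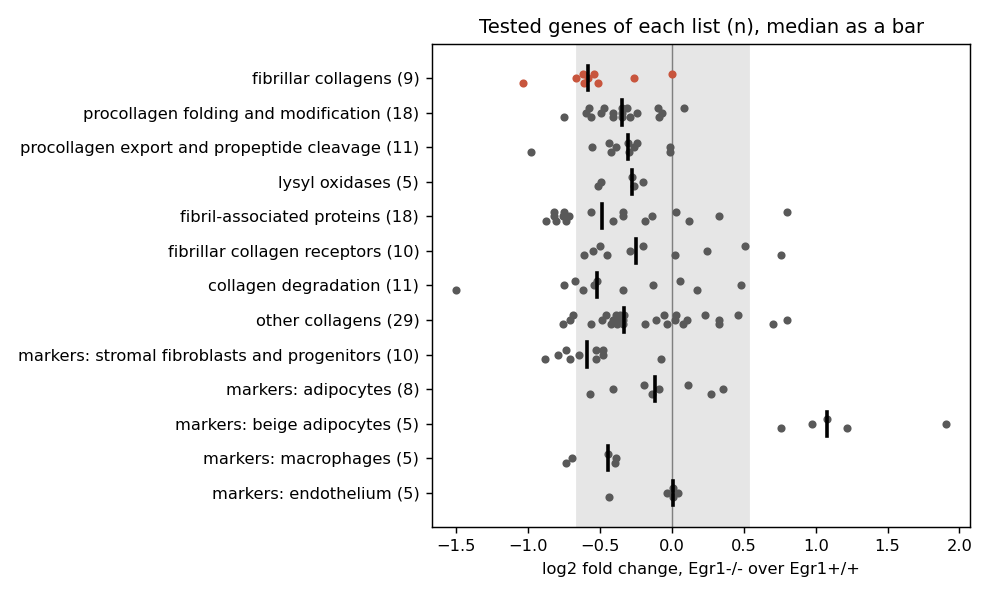
Log2 fold change of each tested gene (points) in the fibrillar collagens and the lists around them, with the list median marked. The grey band spans the 5th to 95th percentile of all tested genes (-0.66 to 0.54).

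Markers of stromal fibroblasts and adipocyte progenitors moved with the fibrillar collagens. All 10 had a lower fitted level in *Egr1*-/- mice. Of them, 8 were lower at an unadjusted p under 0.05, against 5.60% of all genes, and 7 had separated groups, against 8.10%. Their median was -0.59 beside -0.58 for the collagens. The summed level was 1755, 2184 and 1884 CPM in *Egr1*+/+ mice and 1503, 1232 and 1137 CPM in *Egr1*-/- mice, so *Egr1*+/+ mouse 2 was highest and *Egr1*-/- mouse 1 the highest mutant here too. *Pdgfra*, a receptor that marks progenitors, averaged 97.0 ± 8.06 CPM and 69.7 ± 8.99 CPM (SD, n = 3), with a log2 fold change of -0.48 ± 0.13 (SE) and an edgeR adjusted p of 0.25. *Cd34*, *Dpt* and *Clec3b* had -0.71, -0.74 and -0.88.

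Divided by this stromal sum, the summed fibrillar collagens were 2.90, 2.80 and 2.87 in *Egr1*+/+ mice, compared with 2.86, 2.56 and 3.11 in *Egr1*-/- mice, a ratio of means of 0.996. Divided by *Pdgfra* alone they were 54.6, 66.9 and 50.9 against 54.3, 51.6 and 51.4, a ratio of means of 0.913. Both ranges overlapped between the genotypes. The largest parts of the stromal sum were *Gsn* (means of 1065 CPM in *Egr1*+/+ and 740 CPM in *Egr1*-/- mice) and *Dpt* (412 and 247 CPM). *Dpt* was also counted in the list of proteins that coat or join fibrils, so the sum is not independent of the matrix genes. The part of stromal cell number in the collagen values was not tested.

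**Figure D5:**
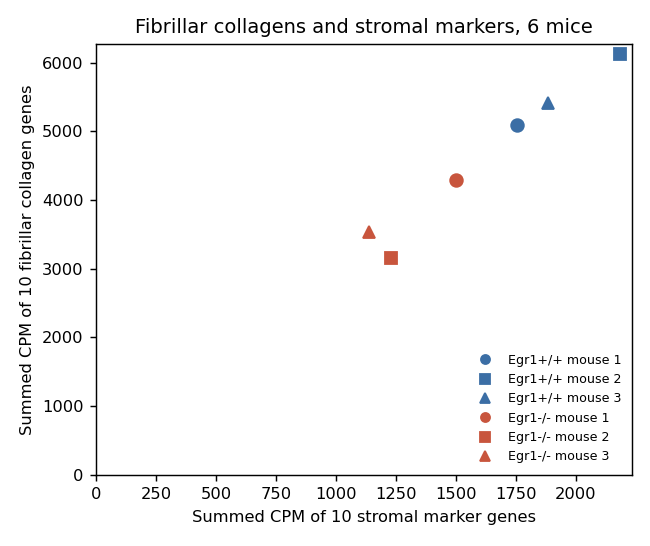
Summed CPM of the fibrillar collagens (vertical axis) against the summed CPM of 10 stromal fibroblast and progenitor markers (horizontal axis), 1 point per mouse. The *Egr1*-/- mice lie below and to the left of the *Egr1*+/+ mice on both axes (collagen sums of 3156 to 4298 against 5088 to 6123 CPM).

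Other cell types gave mixed values beside the collagens. The 5 beige adipocyte markers all had a higher fitted level in *Egr1*-/- mice at an unadjusted p under 0.05, against 5.06% of all genes. Their summed level was 488 to 637 CPM in *Egr1*+/+ and 880 to 1476 CPM in *Egr1*-/- mice. *Ucp1*, the uncoupling protein of thermogenic fat, had a log2 fold change of 1.22 ± 0.21 (SE) and an edgeR adjusted p of 0.151. The other beige markers, *Dio2*, *Cox8b*, *Ppargc1a* and *Cidea*, had 1.91, 0.76, 1.08 and 0.97. Of the 8 adipocyte markers 5 were lower and 3 higher in fitted level, with a median of -0.11. *Lep*, which encodes leptin, and *Adipoq*, which encodes adiponectin, had -0.57 and -0.41, and *Lipe*, a lipase of fat cells, had 0.36, the 3 adipocyte markers at an unadjusted p under 0.05. All 5 macrophage markers had a lower fitted level (median -0.45), with a summed level of 187 to 238 CPM against 125 to 170 CPM. At an unadjusted p under 0.05, 3 of them were lower, against 5.60% of all genes. The log2 fold changes of these 3, *Mrc1*, *Adgre1* and *Cd68*, were -0.70, -0.74 and -0.45. The 5 endothelial markers had a median of 0.0066 and the 6 mural cell markers one of -0.14. The 5 lymphocyte markers had a higher fitted level, with a median of 0.51, and the 5 mammary epithelial markers a median of 0.15, both lists with overlapping sums. The part of each of these cell types in the collagen values was not tested.

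Across the 6 mice, the genes whose levels most resembled the mean profile of the 7 members above 10 CPM were *Dpysl3*, *Fstl1*, *Thbs3*, *Pros1* and *Gatm*, out of 7262 candidates. Their Pearson's r with the profile was 0.997, 0.995, 0.995, 0.994 and 0.993. *Fstl1*, a secreted glycoprotein, averaged 637 CPM in *Egr1*+/+ and 349 CPM in *Egr1*-/- mice, with a log2 fold change of -0.87 ± 0.18 (SE) and an edgeR adjusted p of 0.165. *Thbs3* encodes a thrombospondin of the matrix and had -0.67, and *Dpysl3*, a cytoskeletal regulator, had -0.76. These genes were picked on the same mice, so their fold changes describe the choice.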

How the data were processed

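Libraries came from total RNA after removal of ribosomal RNA, with a kit that keeps the strand. Per the submitters' processing notes, the tools were TopHat2, Bowtie2 and featureCounts on mm10 (GRCm38). The values the authors deposited are unnormalized read counts per gene and mouse, and the strand and multimapping settings are not given in the sources used here. Genes were named with GENCODE M21, which matched 46574 of 47069 identifiers. In R 4.3.3, edgeR 4.0.16 was run with TMM, filterByExpr (minimum count 10 in a library of median size) and the quasi-likelihood test. Benjamini-Hochberg adjusted p-values were read at a threshold of 0.05, and log2 CPM used a prior count of 2. Intervals of fold changes were at 95% and came from the standard error and the degrees of freedom of the fit. DESeq2 1.42.0 and limma-voom (limma 3.58.1), other scalings and filters, a replicate block and the omission of each mouse served as alternatives. Ratios were tested by exact permutation over mice. The members and lists were chosen with earlier results of these data known. Genes were eligible for naming from each list as the 4 with the lowest p, or as all genes of lists of up to 8, and not all eligible marker genes are named. Also eligible were *Egr1*, the genes that overlap or adjoin a member and the 5 genes most like the members' profile. Some genes are not reported here. Lengths of principal transcripts were added after the exon lengths had been seen. Scripts were tested on simulated data. The totals per mouse limit precision mainly for members with few reads, and the libraries differed by more than sampling noise. The methods give 4 litters for the 6 mice, with a littermate pair across genotypes, but not which mice shared a litter, so no litter term was fitted and the p-values treat the mice as independent.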

Additional observations from a re-analysis of the deposited data

How the results depend on the processing

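The members other than *Col27a1* (8 genes) had log2 fold changes below 0 in all 15 alternative fits that contained them. The number of members past an adjusted p of 0.05, which was 0 in edgeR, was 4 in DESeq2 and 2 without a filter on low counts (*Col1a1* and *Col5a2*), a setting under which 552 genes were called in all instead of 3. DESeq2 called 366 genes. Omitting 1 mouse at a time left the number of members called by edgeR at 0 in every case. The edgeR adjusted p of *Col5a2*, 0.190 with all mice, ranged from 0.0567 without *Egr1*-/- mouse 1 to 0.674 without *Egr1*-/- mouse 3. Omitting *Egr1*-/- mouse 1 raised the calls over all genes to 59. The median of the tested members, -0.58, was -0.74 with total counts, a scaling that moved the median of all genes to -0.15, and ranged from -0.74 to -0.48 when 1 mouse was omitted. The difference in the collagen share, -0.414 percentage points of non-mitochondrial counts, was -0.239 with all counts as the base. As a ratio of genotype means, the share in *Egr1*-/- mice was 0.676 of the control share on the first base and 0.590 on the second. The difference on the first base ranged from -0.483 to -0.349 when 1 mouse was omitted. *Col27a1* turned positive with limma-voom (0.0463), upper-quartile scaling (0.00022), mitochondrial genes left out (0.0034), no filter (0.0074) and the replicate block (0.0588), and ranged from -0.25 to 0.18 with 1 mouse omitted. The ratio of *Col3a1* to *Col1a1* in *Egr1*-/- over *Egr1*+/+ mice, 1.01, ranged from 0.982 to 1.03. The causes were not tested. Same-numbered mice did not deviate together (r of -0.0888, 0.106 and -0.126), so the numbers were not taken as pairs. With the replicate block 0 members were called, the median was -0.58 and the adjusted p of *Col1a1* was 0.298. Depth limits *Col2a1*, *Col24a1* and *Col11a1*.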
